A study of Drosophila melanogaster with 3 samples.

Results

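The Rab genes encode the largest branch of the Ras-like small GTPases, and 33 of the 13945 protein-coding genes on the 6 chromosome arms of Drosophila melanogaster were members here. A gene was a member when its symbol in the Ensembl annotation was Rab or RabX followed by digits and then only letters or nothing. The rule reads gene symbols and uses no peak value. The members lay on X (13 genes) and on 2L, 2R, 3L and 3R (5 genes each), with none on chromosome 4.

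The data were peak lists from chromatin immunoprecipitation followed by sequencing (ChIP-seq), an assay that maps where a protein sits on DNA. Whole prepupae, males and females together, came from 1 transgenic fly line in which the CG8319 protein carries eGFP, a green fluorescent protein, at its C terminus. Chromatin was sheared by sonication to between 200 and 800 bp, and the tagged protein was recovered with an antibody against GFP. There was 1 group of 3 biological replicates, numbered 1 to 3 in the labels, and the age of the animals was given as unknown. An untagged line, and any other treatment, stage or genotype, were not analysed here, and the samples therefore allow no test between groups. The replicates share their line, and nothing in the labels says that they were separate cultures or crosses, so their spread may be partly technical. In whole animals, strong occupancy in few cells and weak occupancy in many cells cannot be told apart.

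Rab proteins are membrane switches. In the GTP-bound form each one marks a particular organelle or vesicle and recruits effectors such as tethers and motors. Exchange factors (GEFs) load GTP, GTPase-activating proteins (GAPs) switch the protein off, and prenylation by a geranylgeranyl transferase anchors it in the membrane. Around the prepupal stage, larval tissues such as the salivary gland and fat body undergo secretion and autophagy, processes in which Rab proteins are known to act.

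A peak was assigned to a Rab gene when its summit, the position of highest enrichment, lay within 500 bp of an annotated start site ("promoter") or anywhere inside the gene. The optimal list is the authors' thresholded set of 4410 peaks. Its signal, the peak caller's own value for each peak, ran from 87.3 through a median of 145 to 1792. The pooled list and the 3 replicate lists hold 30000 rows each, peaks together with background, so a low-ranked row is no call. The optimal peaks are exactly the 4410 highest rows of the pooled list, and the 4410 highest rows of each replicate are called its strongest peaks below. Signal has a different scale in each list and was compared within a list only. Read depth is unknown, because no read counts were analysed here. Positions are given in dm6 coordinates counted from 1, and a negative distance lies upstream of the nearest start site.

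Of the 33 Rab genes, 5 had an optimal summit: Rab5, Rab14, Rab39, Rab1 and Rab11. The summits of Rab5, Rab39 and Rab1 were at promoters, and those of Rab14 and Rab11 lay further inside the gene. The summit sequences of 4 of these genes follow, 101 bp each on the plus strand, 5′ to 3′, from the RefSeq genome of the same assembly. They are the DNA under 4 of the 5 optimal summits at this family. The window of Rab39, whose signal of 125 was above those of Rab1 and Rab11, is not printed. The 101 bp at Rab26, whose pooled signal of 77.5 fell below the optimal list, is added for comparison. Rab27 and Rab32, also below the list, had higher pooled signals than Rab26 and are not printed. Capitals mark runs of 6 or more A or T bases. Rab5 is at chr2L:2363737-2363837, Rab14 at chr2L:14355671-14355771, Rab1 at chr3R:21269089-21269189, Rab11 at chr3R:21113115-21113215 and Rab26 at chr3L:21321995-21322095.
Rab5: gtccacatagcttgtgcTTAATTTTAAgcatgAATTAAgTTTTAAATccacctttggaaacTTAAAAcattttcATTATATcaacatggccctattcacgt
Rab14: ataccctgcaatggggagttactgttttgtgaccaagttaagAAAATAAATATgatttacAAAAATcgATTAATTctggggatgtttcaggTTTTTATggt
Rab1: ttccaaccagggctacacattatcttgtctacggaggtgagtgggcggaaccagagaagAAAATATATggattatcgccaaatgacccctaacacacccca
Rab11: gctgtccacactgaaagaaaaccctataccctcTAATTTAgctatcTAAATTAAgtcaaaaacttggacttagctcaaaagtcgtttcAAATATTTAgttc
Rab26: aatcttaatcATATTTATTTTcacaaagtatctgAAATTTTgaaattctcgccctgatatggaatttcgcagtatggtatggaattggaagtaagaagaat

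The windows of Rab5, Rab14 and Rab11 were of ordinary base composition for this list and held several A/T runs, while that of Rab1 was richer in G and C. A or T made up 68.3% of the Rab5 window, 67.3% of the Rab14 window, 66.3% of the Rab11 window and 52.5% of the Rab1 window. The unprinted Rab39 window had 72.3% A or T. Over the 4410 optimal windows the median was 68.3%, with quartiles of 62.4% and 72.3%, and 7.82% of them had a lower share than Rab1. The longest A/T run was 10 bp at Rab5, 11 bp at Rab14, 9 bp at Rab1, 9 bp at Rab11 and 17 bp at Rab39. The median over all optimal windows was 10 bp. A run of 6 bp or more occurred in 93.0% of all optimal windows, so its presence sets no Rab window apart.

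Of 4 short motifs searched on both strands, none was found in the 5 optimal Rab windows. TATCGATA, the DRE core, was in 0.930% of all optimal windows, GAGAGA in 4.31%, the E-box CACGTG in 0.680% and the TATA box letters TATAAA in 21.7%. TATCGATA was found in the summit window of Rab27, a gene below the optimal list. These are matches of letters and do not show that a factor was bound.

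Among 6 genes assigned to the ER and Golgi (Rab1, Rab2, Rab6, Rab18, Rab19 and Rab30), Rab1 had an optimal promoter summit and 3 had a pooled row. Rab39 and Rab40 were placed with them by hand, although their sites of action are less settled and Rab39 is also known from lysosomes. With both included, 2 of 8 had an optimal promoter summit and 5 had a pooled row, against 14.0% and 47.6% of all protein-coding genes. Rab1 (FBgn0285937, 3R, 21266029 to 21269060, minus strand), which drives transport between the endoplasmic reticulum and the Golgi, had its optimal peak at chr3R:21268934-21269343. The summit lay 79 bp upstream of its single start site, in intergenic sequence, with a pooled signal of 112 (rank 3143). In replicates 1, 2 and 3 the overlapping peaks had signals of 33.1 (rank 2657), 53.5 (rank 3313) and 21.3 (rank 5396). Replicates 1 and 2 thus placed Rab1 among their strongest peaks and replicate 3 did not. The replicate summits lay at 35, 78 and 93 bp upstream of the start. The next start sites belonged to AP-2sigma, an adaptor subunit of endocytosis, 936 bp away, and to Idi, 987 bp away, so this promoter summit belonged to Rab1 alone within 500 bp.

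Rab39 (FBgn0029959, X, 7734923 to 7736756, plus strand), linked to lysosomes and autophagy, had its optimal peak at chrX:7734406-7734815. The pooled signal was 125 (rank 2704), and the summit lay 312 bp upstream of the Rab39 start. That position is inside the 5′ UTR of Pdp, a pyruvate dehydrogenase phosphatase gene on the other strand, and 40 bp from a Pdp start site. The replicate signals were 33.2 (rank 2644), 63.1 (rank 2600) and 33.8 (rank 2969), and all 3 replicates had it among their strongest peaks. It was the only one of the 3 Rab promoter summits that also lay within 500 bp of another gene's start. Over all protein-coding genes with an optimal promoter summit, 1111 of 1953 (56.9%) shared it in this way. The peak lists do not separate Rab39 from Pdp.

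The other 6 members of the ER and Golgi group had weaker rows. Rab40 had a pooled signal of 56.3 (rank 7571) in its own intron, 173 bp upstream of a start site. Rab30, a Golgi Rab, had 44.8 (rank 9947) at 29 bp upstream of its start and 86 bp from the start of Caper, and in replicate 1 it was among the strongest peaks with 25.4 (rank 4057), while replicates 2 and 3 had no row. The pooled signal of Rab19 was 29.6 (rank 17699). Rab2, Rab6 and Rab18 had no pooled row. Rab6, which acts in transport back through the Golgi, had rows in replicates 1 and 2, at ranks 4791 and 14526. Rab18, found on the endoplasmic reticulum and lipid droplets, had rows in replicates 1 and 3, at ranks 9756 and 5101. Rab2, which acts at the Golgi, had rows in replicates 1 and 2 at ranks 19830 and 16563.

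The endosomal group held the strongest signal of the family. Of its 8 genes (Rab4, Rab5, Rab7, Rab9, Rab11, Rab14, Rab21 and Rab35), 3 had an optimal summit and 6 had a row in the pooled list and in all 3 replicate lists. Over all protein-coding genes, 19.2% had an optimal summit, 47.6% a pooled row and 35.5% a row in all 3 replicates. Rab5 (FBgn0014010, 2L, 2359142 to 2365273, minus strand), the organiser of early endosome fusion, had an optimal peak at chr2L:2363582-2363991 with a pooled signal of 251 (rank 857). The replicate signals were 66.9 (rank 730), 99.9 (rank 1243) and 82.9 (rank 657), so each replicate ranked it well inside its strongest peaks. The replicate summits lay within 39 bp of the pooled summit. Rab5 has 6 annotated start sites, and the summit lay in an intron, 283 bp upstream of the nearest of them and 1486 bp downstream of the first. Its other rows were lower in the pooled list, with 46.3 (rank 9565) at 235 bp upstream of another internal start and 41.0 (rank 11232) at 166 bp upstream of the first start.

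Rab14 (FBgn0015791, 2L, 14355145 to 14358764, plus strand), which acts on endosomes and phagosomes, had an optimal peak at chr2L:14355516-14355925 with a pooled signal of 138 (rank 2353). The summit lay 576 bp downstream of the first start, in an intron of Rab14 and of the antisense noncoding gene lncRNA:CR44851. In replicates 2 and 3 the signals were 77.2 (rank 1941) and 45.4 (rank 1912). Replicate 1 had 20.6 (rank 5533) for the strongest overlapping row, whose summit lay 242 bp further downstream, and 19.1 (rank 6219) for a row whose summit was 594 bp from the start. Rab14 therefore ranked high in replicates 2 and 3 and outside the strongest peaks in replicate 1.

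Rab11 (FBgn0015790, 3R, 21111408 to 21116146, plus strand), the marker of recycling endosomes, had an optimal peak at chr3R:21112960-21113369, in its intron and 1757 bp downstream of its single start. The pooled signal was 110 (rank 3203), and the replicate signals were 32.8 (rank 2709), 56.0 (rank 3107) and 29.0 (rank 3647). All 3 replicates had it among their strongest peaks. A second pooled row lay 223 bp upstream of the start with a signal of 65.9 (rank 6227), below the optimal list, and it appeared in each replicate at ranks 9575, 6799 and 6724. At Rab11 the intronic summit thus outranked the promoter summit in all 4 lists.

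**Figure D1:**
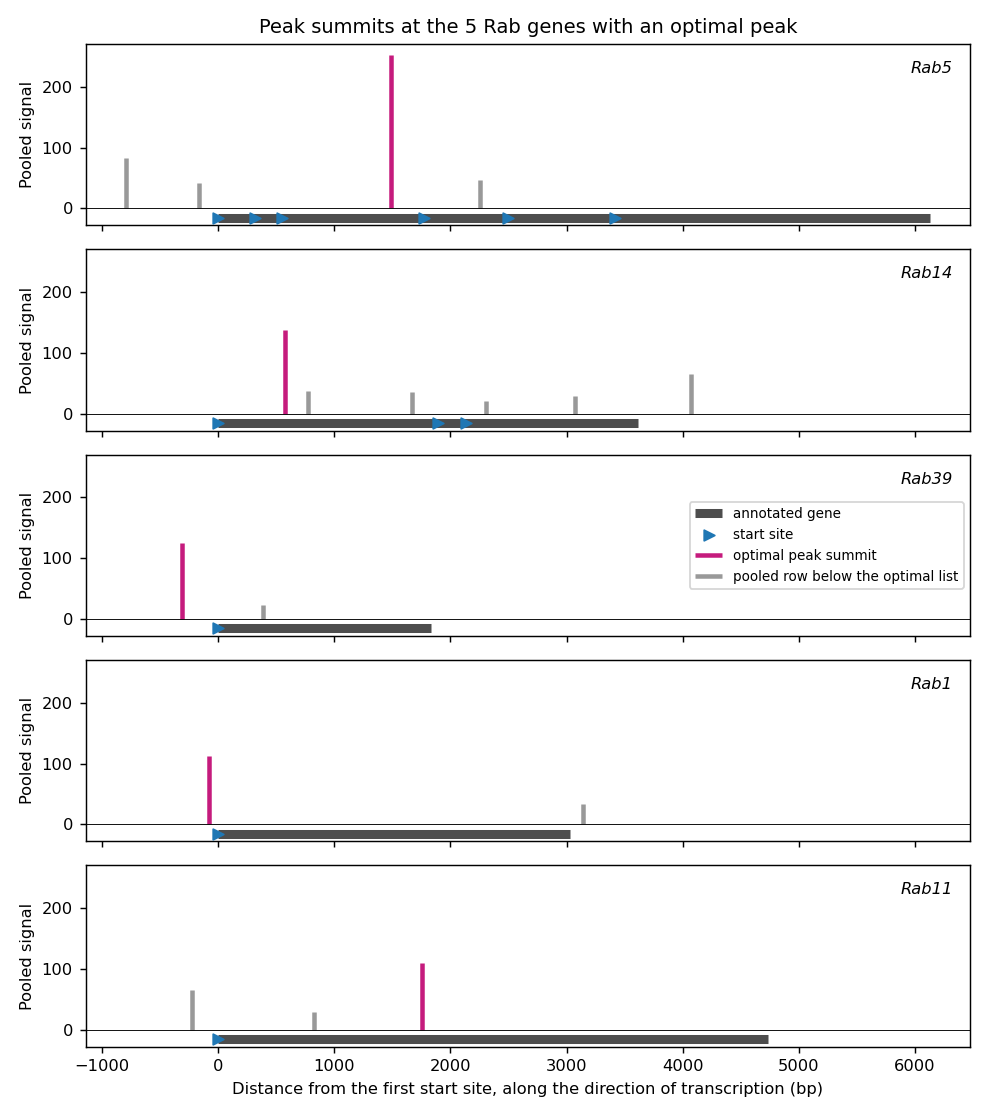
Pooled signal of peak summits (vertical axis, peak caller units) against distance from the first annotated start site (horizontal axis, bp, in the direction of transcription) for Rab5, Rab14, Rab39, Rab1 and Rab11. Magenta lines are optimal summits, grey lines are other pooled rows within 1000 bp of the gene, bars are the annotated genes and triangles their start sites. The optimal summits of Rab39 and Rab1 stand upstream of the start at 312 and 79 bp, and those of Rab5, Rab14 and Rab11 stand inside the gene.

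Of the remaining endosomal genes, Rab7 came nearest to the optimal list. Rab7, the late endosome and lysosome Rab, had a pooled signal of 73.9 (rank 5394) at 8 bp upstream of a start and 84 bp from the start of Epp. Its strongest replicate rows were 25.3 (rank 4099), 48.8 (rank 3727) and 15.2 (rank 8672), so replicates 1 and 2 placed a Rab7 promoter among their strongest peaks. The row of replicate 1 lay at another Rab7 start site than the pooled one. Rab35 had 44.1 (rank 10184) in its 5′ UTR and Rab9 had 38.9 (rank 12058) in its intron. Rab4 and Rab21, both early endosomal, had no row in any list.

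None of the 5 secretory Rab genes had an optimal summit, and all 5 had a row in the pooled list and in every replicate list. The rows were not all at the same site, since no replicate 1 row overlapped the strongest pooled peak of Rab3 or Rab8. The all-gene shares were 19.2% for an optimal summit, 47.6% for a pooled row and 35.5% for a row in every replicate. These 5 genes spanned 3091 to 16254 bp, against a median of 2166 bp for all protein-coding genes. Rab27, which docks secretory vesicles, had a pooled signal of 81.3 (rank 4820) at 84 bp upstream of its start, which is also 5 bp from the start of mei-38. Its replicate signals were 33.8 (rank 2577), 31.4 (rank 6905) and 16.6 (rank 7616), high in replicate 1 and outside the strongest peaks in the other two. Rab26, a Rab of secretory granules and synaptic vesicles, had 77.5 (rank 5097) in its own intron at 336 bp upstream of an internal start. Its replicate signals were 23.6 (rank 4552), 22.6 (rank 11266) and 27.6 (rank 3885). Rab8, which carries post-Golgi cargo to the plasma membrane, had a pooled signal of 38.6 (rank 12202), yet in replicate 1 a row 19 bp upstream of a start, also near the start of Usp32, had 27.5 (rank 3592). Rab10 and Rab3, the synaptic vesicle Rab, had 35.5 (rank 13621) and 32.4 (rank 15519), both far from their starts.

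Rab23 and Rab32 likewise fell below the optimal list. Rab32, encoded by the eye pigment gene lightoid and needed for lysosome-related pigment granules, had a pooled signal of 81.2 (rank 4832) in its intron, 1629 bp from the nearest start. The strongest overlapping replicate rows were at ranks 5828, 4065 and 5127. In replicate 1 that row had its summit 1899 bp from the start, and the row nearer the pooled summit, at 1639 bp, had 6.56 (rank 27987). Rab23, known in mouse as an antagonist of Hedgehog signalling, had 73.1 (rank 5463) in its intron, 2242 bp from its start. Replicates 2 and 3 held it at ranks 4335 and 6474, and replicate 1 had no overlapping row.

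Rab genes lay on both sides of the threshold of the optimal list, and none had its strongest pooled signal between 81.3 and 110. The lowest optimal signal at a Rab gene was 110 (Rab11), and the lowest in the optimal list was 87.3. The highest below it were 81.3 (Rab27), 81.2 (Rab32), 77.5 (Rab26), 73.9 (Rab7) and 73.1 (Rab23), at pooled ranks of 4820 to 5463. The share of all protein-coding genes at these ranks is not given here, so these values do not set the Rab genes apart.

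The 10 genes of the Rab9D to Rab9F and RabX groups, most of them short, had the fewest rows. RabX1 alone had a pooled signal above 50, at 64.6 (rank 6378) in its intron. Rab9Fb had 21.2 (rank 28556), near the bottom of the list and inside its coding sequence. RabX4 had rows in replicates 2 and 3 at ranks 10085 and 12112, and Rab9D had a row in replicate 1 at rank 29258. Rab9Db, Rab9E, Rab9Fa, RabX2, RabX5 and RabX6 had no row in any list within the distances used. An optimal peak past the 3′ end of RabX5 is given under the other observations. The X-linked Rab9D, Rab9Db, Rab9E and Rab9Fa are near-duplicates. Over their 6 pairs the aligned gene sequences were 96.0% to 99.0% identical, with longest identical runs of 166 to 337 bp. Reads from these 4 genes may have been lost or split between copies, and the handling of such reads was not given in the sources used here, so their few rows are uncertain. Rab9Fb was less alike, at 78.4% to 81.0% identity with them and a longest identical run of 42 bp.

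**Figure D2:**
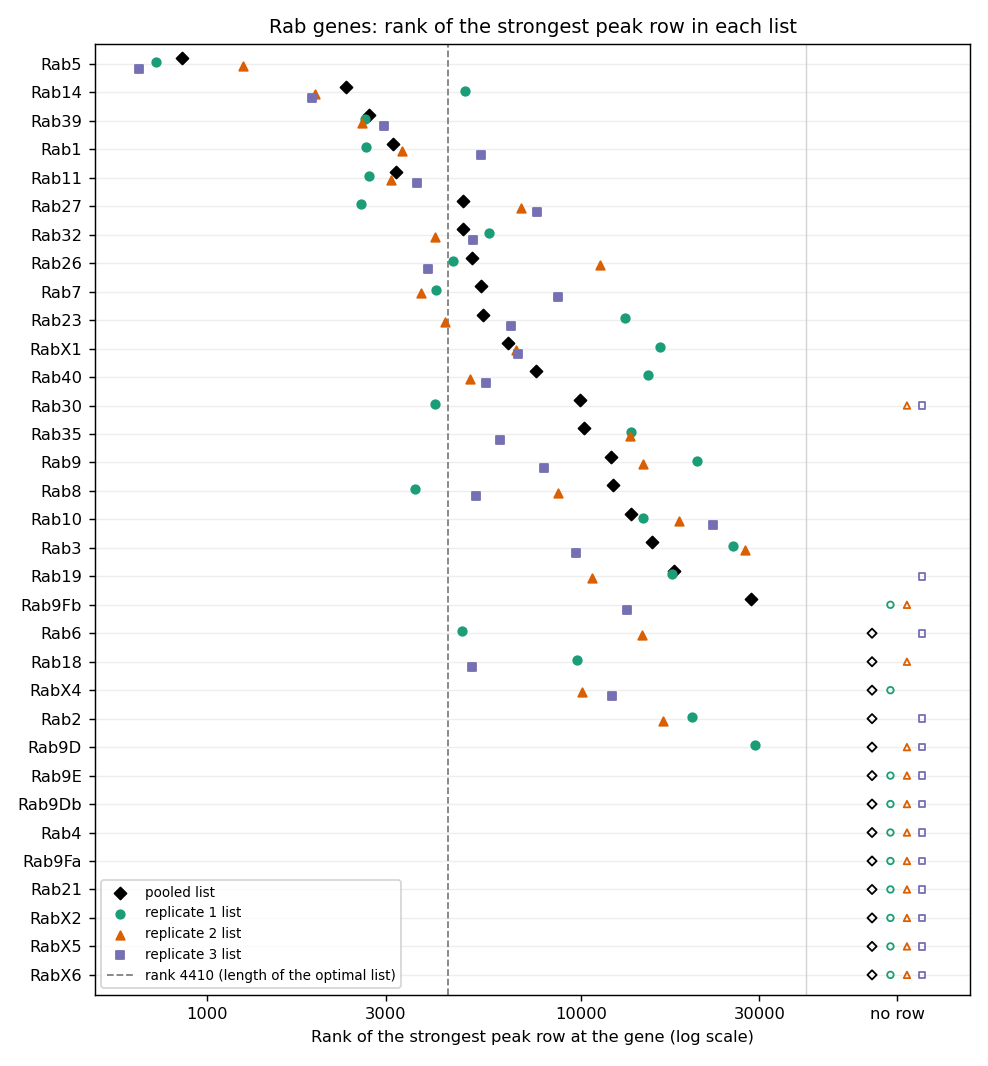
Rank of the strongest peak row at each of the 33 Rab genes (horizontal axis, log scale, rank 1 strongest) in the pooled list (diamonds) and in replicates 1, 2 and 3 (circles, triangles, squares). Open symbols at the right mark a list with no row, and the dashed line is rank 4410, the length of the optimal list. The 5 top genes have pooled ranks of 857 to 3203, and the 8 lowest genes have no row in any list.

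Counted over the family, the share of Rab genes with an optimal summit was near that of all protein-coding genes. At promoters it was 3 of 33 Rab genes (9.09%, 95% Wilson interval 3.14% to 23.6%), against 14.0% of all protein-coding genes. With summits inside the gene included it was 5 of 33 (15.2%, interval 6.65% to 30.9%), against 19.2%. Both all-gene values lie inside the Rab intervals, which cover counting over genes only, and neither share sets the Rab genes apart. In a stricter count, replicate 2 was left out and a peak also had to be among the strongest of replicates 1 and 3. Of the 33 Rab genes, 3 (9.09%) then had a summit at the promoter or inside (Rab5, Rab11 and Rab39), against 14.8% of all protein-coding genes. Before this step the shares were 15.2% and 19.2%.

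The replicates gave different counts for the Rab genes. In replicate 1, 7 Rab genes (21.2%) had a promoter summit among the strongest peaks, against 15.1% of all protein-coding genes. In replicate 2 there were 4 (12.1%), against 14.4%, and in replicate 3 there were 3 (9.09%), against 14.2%. The mean over replicates was 14.1% ± 6.31 for Rab genes and 14.6% ± 0.491 for all protein-coding genes (SD, n = 3 each), so the difference was smaller than the spread between replicates. Rab5 and Rab39 were in the set in every replicate. Rab1 and Rab7 were in it in replicates 1 and 2, Rab8, Rab27 and Rab30 in replicate 1 alone, and Rab26 in replicate 3 alone.

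Further down the lists more Rab genes appeared. A row of the pooled list fell at 20 of 33 Rab genes (60.6%, interval 43.7% to 75.3%), against 47.6% of all protein-coding genes. Any row of replicate 1 fell at 23 Rab genes (69.7%), against 55.5%. In replicate 2 it was 21 (63.6%), against 52.7%, and in replicate 3 it was 20 (60.6%), against 50.6%. All 3 replicates had a row at 17 Rab genes (51.5%, interval 35.2% to 67.5%), against 35.5%. This counts any row at the gene, and the rows need not overlap. The strongest pooled peak had no overlapping row in replicate 1 at Rab3, Rab8 and Rab23, and none in replicate 3 at Rab40. No replicate had a row at 8 Rab genes (24.2%, interval 12.8% to 41.0%), against 28.3%. For all 11 shares given here, the all-gene value lay inside the Rab interval, at its lower edge for genes with a row in all 3 replicates.

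**Figure D3:**
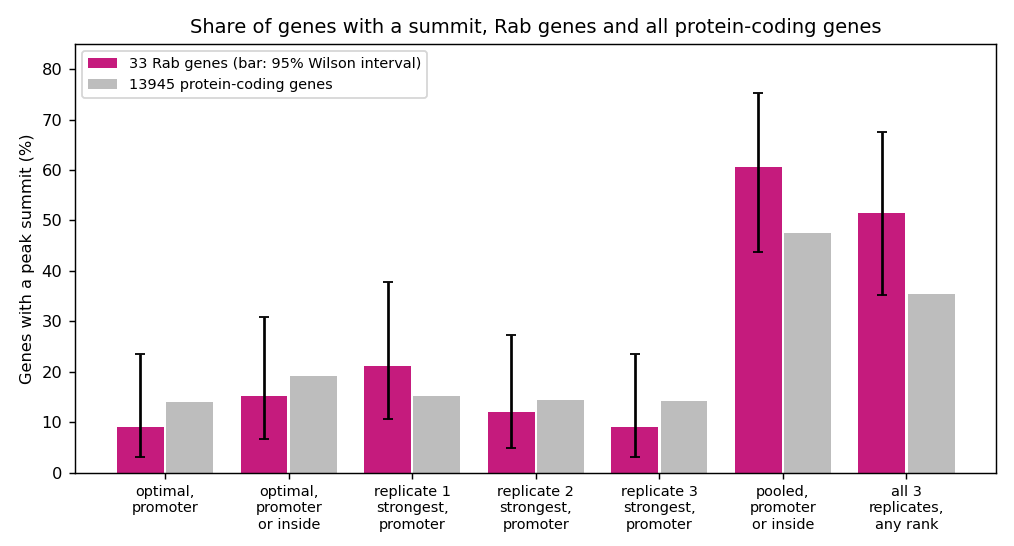
Percentage of genes with a summit for 33 Rab genes (magenta, with 95% Wilson intervals) and 13945 protein-coding genes (grey), by list and rule. The Rab value is below the all-gene value for the optimal list (9.09% against 14.0% at promoters) and above it for the pooled list (60.6% against 47.6%), and the Rab intervals span the all-gene values.

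Gene length and the number of start sites moved with these counts. The 20 Rab genes with a pooled row had a median annotated span of 3473 bp (878 to 16254 bp), and the 13 without one had 1208 bp (791 to 2731 bp). The median over all 33 Rab genes was 2445 bp, against 2166 bp for all protein-coding genes. The spans differed among the role groups, with medians of 2005 bp in the ER and Golgi group, 3444 bp in the endosomal, 3591 bp in the secretory and 893 bp in the Rab9D to Rab9F and RabX group. The part of length in the differences between role groups was not tested.

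Within classes of span, with limits chosen after the values were seen, the Rab genes of middle length had the most pooled rows relative to other genes. Of Rab genes under 2000 bp, 3 of 15 had a pooled row and 1 had an optimal summit, against 29.6% and 9.41% of all protein-coding genes of that length. Of Rab genes of 2000 to 5000 bp, 12 of 13 had a pooled row and 3 an optimal summit, against 47.8% and 18.2%. All 5 Rab genes over 5000 bp had a pooled row and 1 had an optimal summit, against 81.0% and 38.6%. Of Rab genes with 1 start site, 12 of 24 had a pooled row, against 38.9%, and of those with more start sites 8 of 9 did, against 71.7%. On X the pooled list had a row at 6 of 13 Rab genes, against 49.3% of protein-coding genes there, and on the autosomes at 14 of 20, against 47.2%. These classes are small and carry no test.

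**Figure D4:**
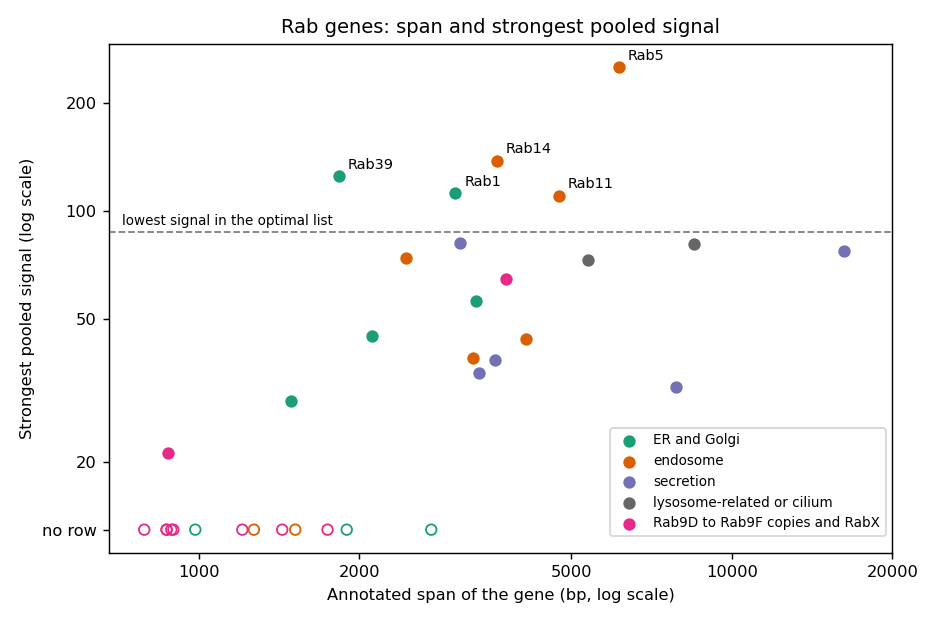
Strongest pooled signal at each Rab gene (vertical axis, log scale, peak caller units) against its annotated span (horizontal axis, bp, log scale), coloured by role group. Open circles at the bottom are genes with no pooled row, which had spans of 791 to 2731 bp, and the dashed line is the lowest optimal signal of 87.3.

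Summits at Rab genes lay both at promoters and further inside the gene. Of the 45 pooled rows at Rab genes, 31 lay within 500 bp of a start, 24 of them upstream of the nearest start and 7 at or downstream of it, and 14 lay further inside the gene. An upstream summit can still lie inside the gene where the nearest start is an internal one, as at Rab5, Rab8, Rab26 and Rab40. The strongest pooled summit of a gene was at a promoter in 11 of 20 Rab genes, and in 4 it was also within 500 bp of another gene's start (Rab39, Rab27, Rab7 and Rab30). From a Rab start site the nearest optimal summit was at a median of 6472 bp, against 9612 bp for all protein-coding genes.

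Each of 6 lists of genes that regulate or serve the Rab proteins held at least 1 optimal promoter summit. Over these regulators, effectors and tethers, 19 of 94 genes (20.2%) had one, against the 14.0% of all protein-coding genes. Of these 19 summits, 15 also lay within 500 bp of another gene's start, against 56.9% over all protein-coding genes with an optimal promoter summit. The lists are incomplete, because 6 symbols of the GTPase-activating proteins and 1 each of 2 other lists matched no single protein-coding gene. The exchange factors and exchange complexes had 8 of 25 genes (32.0%). The strongest were Mon1, a subunit of the complex that activates Rab7, with a signal of 338 (rank 464) at 41 bp upstream of its start and shared with mRpS2, and spri (sprint), a relative of the Rab5 exchange factors of mammals, with 272 (rank 730). In replicates 1, 2 and 3 the Mon1 peak had ranks of 679, 402 and 482.

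The TBC-domain GTPase-activating proteins had 3 of 18 genes (16.7%), led by sky (skywalker), a GAP that acts on Rab35 at synapses, with 183 (rank 1537), and GAPcenA with 137 (rank 2391). The effectors, motors and golgins had 5 of 30 (16.7%). Rtnl1, a reticulon that shapes the tubular endoplasmic reticulum, had 662 (rank 85), with replicate ranks of 81, 99 and 82. Rbsn-5, the Rabenosyn effector of Rab5, had 355 (rank 425) at 111 bp upstream of its start, shared with PAPLA1. Of 9 genes listed with the HOPS and CORVET tethers 1 (11.1%) had an optimal promoter summit, Vps33B with 486 (rank 174), shared with Fur1. Vps33B pairs with Vps16B, also listed, in a separate complex, and none of the other 7 genes, which are HOPS or CORVET subunits, had an optimal promoter summit. Of the exocyst genes 1 of 8 (12.5%) had one, Sec6 with 140 (rank 2320), shared with Atg7. Among the 4 genes for prenylation, escort and extraction, RabGGTb, a subunit of the geranylgeranyl transferase, had 87.8 (rank 4376), just inside the optimal list, and Gdi, which extracts Rab proteins from membranes, had 111 (rank 3175) in its intron.

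The 13 Arf, Arl and Sar genes, another branch of small GTPases, were set beside the Rab genes. Of these, 4 (30.8%) had an optimal promoter summit, the strongest being Arl1, a Golgi GTPase, with 451 (rank 232), shared with brm, and Arl5 with 211 (rank 1182). The counts are small, no test of the lists was made, and the difference between the Rab genes and these lists was not tested.

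**Figure D5:**
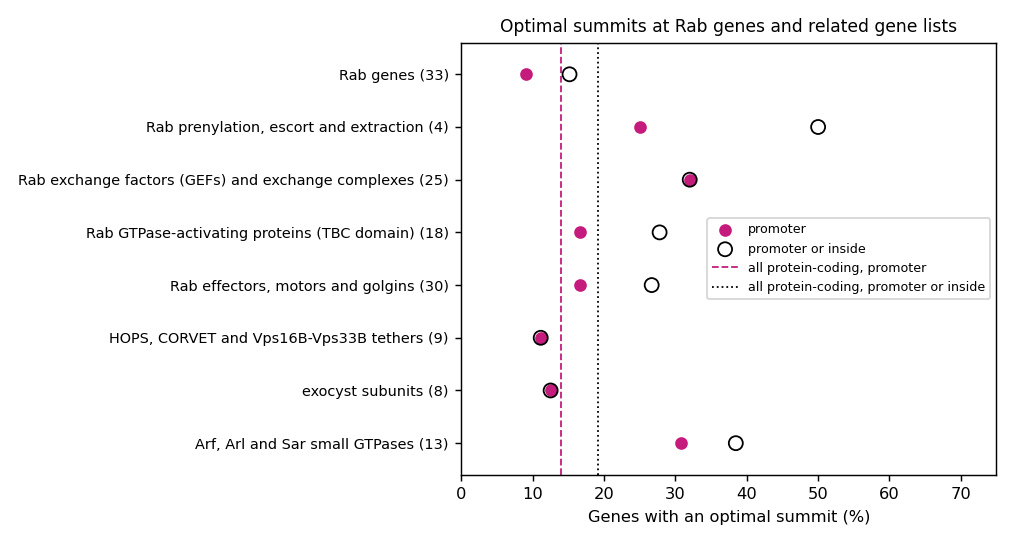
Percentage of genes with an optimal summit (horizontal axis) at a promoter (filled) or at a promoter or inside the gene (open) for the 33 Rab genes and 7 related lists, with the number of genes in brackets. Vertical lines are the values over all protein-coding genes, 14.0% and 19.2%. Each of the Rab values lies below its own line, and the exchange factors at 32.0% lie above both lines.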

How the data were processed

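ChIP-seq of CG8319-eGFP was represented by 5 peak lists on the dm6 build: 1 for each of 3 replicates, 1 pooled and 1 optimal. Per the deposited text notes, the authors called each replicate's list, and the pooled list, from alignments with a control, and derived the optimal list from them by the irreproducible discovery rate (IDR), which keeps peaks that repeat between replicates. The signal values are the deposited peak caller values, used within a list only. The aligner, the peak caller, their versions, the IDR threshold and the handling of reads that match several places were not given in the sources used here. Lists on the dm3 build and the signal tracks were not analysed here, and depth per sample is unknown, so no precision from depth can be given.

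Genes came from Ensembl BDGP6 release 115, leaving out transposable elements (18164 genes on 6 arms), and the 33 Rab genes have the same coordinates in the RefSeq table. Sequence came from the RefSeq genome of the same assembly. A summit is the peak start plus its offset, counted from 1. Replicate rows at a peak are the strongest that overlap it by 1 bp or more. Motifs were searched in 101 bp around each summit. Python 3.11.15, pandas 2.3.3, scipy 1.17.1 (Wilson intervals), pysam 0.24.0 and Biopython 1.88 (pairwise identity of gene copies) were used. Tested on simulated data, the counting found 200 of 200 genes with a planted summit among 13945 genes. Every Rab gene is named. For each related list the 2 genes with the highest optimal promoter signal are named, and Gdi was added after its value was seen. Results for 1 further list are not reported here. The members, lists and role groups were chosen with earlier results of these data known. With 1 group, no test was made. Alternatives changed the promoter window, the optimal list's length, the repeat required in replicates and the replicates used.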

Additional observations from a re-analysis of the deposited data

How the results depend on the processing

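The counts of Rab genes were small and moved with most settings, and so did those of all protein-coding genes. The count with an optimal promoter summit, 3 in the report, was 1 with a window of 200 bp (Rab1, against 9.00% of all protein-coding genes), 6 with a window of 1000 bp (Rab14, Rab18 and Rab30 added, against 17.0%) and 1 with the stronger 2205 optimal peaks (Rab5, against 8.28%). It was 2 when an overlap with the strongest peaks of all 3 replicates was required (against 9.63%), and 2 to 3 with 1 replicate left out (against 10.4% to 10.8%). The count with summits inside the gene included, 5 in the report, was 1 with the stronger 2205 peaks (Rab5, against 12.1%), 3 with the overlap in all 3 replicates (against 13.9%) and 3 with an overlap of 50% of both peaks (against 11.9%). Leaving out 1 replicate gave 3 to 4 (against 14.8% to 15.5%), and the value of 3 came without replicate 2, when Rab1 and Rab14 were lost. The mean share of Rab genes at promoters among the strongest replicate peaks, 14.1%, was 3.03% with the 2205 strongest peaks of each replicate (against 8.43%), 7.07% with a window of 200 bp (against 9.43%) and 20.2% with a window of 1000 bp (against 17.5%). It ran from 10.6% without replicate 1 to 16.7% without replicate 3. Rab5 was counted in every setting except those that counted promoters within 200 bp, since its pooled and replicate summits lay 244 to 292 bp from a start. No paired analysis was possible because there was only 1 group. Read depth is unknown, so a Rab gene without a row may lack a peak or lack reads.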

Other observations

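Some summits lay near Rab genes and outside the distances used for the counts. Past the 3′ end of RabX5, which spans 1208 bp, an optimal summit lay 1397 bp downstream of the start. Its peak at chr3L:1668506-1668915 had a signal of 211 (rank 1171). Past the 3′ end of Rab32, an optimal peak at chr2R:9177427-9177836 had a signal of 112 (rank 3137). Apart from the peak at RabX5, the signals given here were below the optimal median of 145. An optimal peak at chrX:5672390-5672799 had its summit 783 bp upstream of the Rab18 start, with a signal of 91.0 (rank 4190). Another at chr2L:7033320-7033729 had its summit 919 bp upstream of the Rab30 start, with 98.9 (rank 3745). Upstream of Rab5, a pooled row with a signal of 82.4 lay at -796 bp from the first start, inside the neighbouring gene Axud1. This signal was just under the lowest optimal signal. The nearest optimal summit of Rab21 was 57948 bp from a start site, the greatest distance among the 33 Rab genes.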
